A study of Mus musculus with 3 samples.

Results

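Nitric oxide and arginine metabolism was followed through 9 genes in RAW264.7 cells, a macrophage line of the mouse that was established from a tumour that Abelson virus had caused. The genes were chosen by name (Nos2, Gch1, Slc7a1, Slc7a2, Ass1, Asl, Arg1, Arg2 and Odc1), with earlier results of these data known. All 9 were found among the 45761 gene symbols present in both deposited tables. RNA was sequenced from cells plated at high density and stimulated with bacterial lipopolysaccharide (LPS) at 500 ng/ml, added 24 h after plating and left on for 24 h, from untreated high density cells and from untreated low density cells. Each group had 1 library, all of the same cell line, and no genetic change or other agent is named in the labels. The plating densities and the time from seeding to harvest of the untreated cells were not stated in the labels. The comparisons were of high with low density, and of LPS with no LPS at high density. Since no group had a second library, no difference has a replicate check and no test across libraries was made. All values describe these libraries.

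Macrophages take up arginine through cationic amino acid transporters. The inducible nitric oxide synthase turns arginine into citrulline and nitric oxide, a gas that is toxic to microbes, and needs tetrahydrobiopterin as a cofactor. Argininosuccinate synthase and argininosuccinate lyase rebuild arginine from citrulline. Arginases compete for the same substrate and yield ornithine, which ornithine decarboxylase converts to putrescine, the first of the polyamines. In mouse macrophages, Nos2 is a textbook gene of the response to LPS, whereas Arg1 is a textbook gene of the response to interleukin 4.

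RefSeq windows of 250 bases before an annotated transcription start (GRCm38.p6) were matched for 4 of the 9 genes: Slc7a1, Gch1, Odc1 and Ass1. All 4 are shown because they had a window, not because of their levels. The first 3 were 2-fold or more higher with LPS, as described below, and Ass1 was at or near 0 in every library. Nos2 and Arg2, also 2-fold or more higher with LPS, had no window, so the windows do not contrast genes by their response. The Slc7a1 window lies at chr5:148399905-148400154 on the minus strand and the Gch1 window at chr14:47189414-47189663 on the minus strand. The Odc1 window lies on the plus strand and is printed at chr12:17544623-17544807, the 185 of its bases that precede the gene. The Ass1 window lies at chr2:31470020-31470269 on the plus strand. Capitals mark matches on either strand to TGACG (the core of a cyclic AMP response element), CCAAT (a box bound by the factor NF-Y), TATAAA (the TATA box), ACGTG (the core of a hypoxia response element) and a loose form of an NF-kB site, GGG and TCC set apart by 4 bases of any kind.
Slc7a1: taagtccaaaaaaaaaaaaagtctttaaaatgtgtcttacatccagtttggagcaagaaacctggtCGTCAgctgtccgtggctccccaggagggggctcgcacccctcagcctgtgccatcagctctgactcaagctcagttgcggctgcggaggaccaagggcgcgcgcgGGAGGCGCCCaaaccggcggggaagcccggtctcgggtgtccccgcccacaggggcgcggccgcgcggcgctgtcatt
Gch1: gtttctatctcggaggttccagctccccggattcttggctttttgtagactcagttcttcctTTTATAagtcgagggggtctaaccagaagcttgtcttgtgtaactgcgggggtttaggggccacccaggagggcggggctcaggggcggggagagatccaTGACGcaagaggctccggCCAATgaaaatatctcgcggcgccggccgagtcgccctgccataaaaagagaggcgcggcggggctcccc
Odc1: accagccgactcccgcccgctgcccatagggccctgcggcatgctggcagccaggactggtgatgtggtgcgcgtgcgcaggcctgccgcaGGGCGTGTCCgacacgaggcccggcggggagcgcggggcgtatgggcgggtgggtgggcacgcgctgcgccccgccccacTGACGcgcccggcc
Ass1: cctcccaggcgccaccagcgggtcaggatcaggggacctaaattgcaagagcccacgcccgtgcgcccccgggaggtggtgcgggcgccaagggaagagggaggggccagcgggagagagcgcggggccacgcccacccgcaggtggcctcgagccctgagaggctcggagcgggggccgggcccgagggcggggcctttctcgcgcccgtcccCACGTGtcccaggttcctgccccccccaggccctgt
TGACG was present in the windows of Slc7a1, Gch1 and Odc1 and not in that of Ass1, and 17.8% of 32841 windows of the same length hold it. It began 184, 88 and 79 bases before the annotated start of the window in these 3 genes, in that order. For Odc1 that start is at 17544873, inside the gene, so TGACG lies nearer to the end of the printed bases. Over the full 250 bases searched, the 3 windows had a GC content of 62.4%, 59.2% and 80.0%. The Ass1 window, which has no TGACG, was at 75.6%. The median over all windows was 52.4%, and TGACG contains a CG pair. The loose NF-kB form was found in the Slc7a1 and Odc1 windows and in 16.5% of all windows. ACGTG was found only in the Ass1 window among these 4 genes, where it lies within the palindrome CACGTG. It is in 16.6% of all windows, and CACGTG is in 6.02%. A second annotated start of Slc7a1, inside the gene, has TATAAA 28 bases upstream and no TGACG. The site of the general factor Sp1, GGGCGG, was in all 4 windows and in 32.7% of all windows. Of 9 motifs searched on both strands, 2 spaced forms (TTC and GAA set apart by 3 bases, and GAAA repeated after 2 bases) had no match in the windows printed here. These are matches of letters in a short window and say nothing about binding.

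Levels are the deposited FPKM values, which count sequenced fragments relative to transcript length and library size. Because FPKM is per length, levels can be set side by side between genes. A log2 ratio is log2((FPKM + 1)/(FPKM + 1)) within a table. A gene was counted as measured at 1 FPKM or more in either library, and as 2-fold or more apart at a log2 ratio of at least 1 in size. A fold is the plain quotient of 2 deposited levels, and the interval beside it is the exact 95% binomial interval from approximate fragment numbers, which covers counting error only. Macrophage markers bore out the cell type in all libraries: Spi1, Csf1r, Lyz2, Itgam, Adgre1, Fcgr1 and Cd14 were between 18.2 and 1712 FPKM, while Mertk was listed at 0. With LPS, 3 of these 7 were 2-fold or more higher (Adgre1, Itgam and Cd14) and 0 lower, where 8.6% of all measured genes were higher. Of the other 4, all within 2-fold, Fcgr1 was higher and Lyz2, Csf1r and Spi1 were lower. The macrophage markers summed to 2295 FPKM at high density and 2923 FPKM at low density, and to 2536 FPKM with LPS and 2094 FPKM without. Cd68, whose row is shared with other genes, was left out of these sums. The summed neutrophil markers were 2.92 FPKM at high density and 3.43 FPKM at low density, and 9.05 FPKM with LPS and 2.66 FPKM without. Of these, S100a8 was 8.70 FPKM with LPS and 1.26 FPKM without, Elane was 0.0954 FPKM with LPS and 1.40 FPKM without, and S100a9 was listed at 0. Fibroblast, epithelial and lymphocyte markers were under 1 FPKM in every library. The part of these markers in the results was not tested.

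At high density, Nos2 stood out from the rest of the pathway. Of the 9 genes, 6 were measured, 1 of these was 2-fold or more higher (Nos2) and 0 were lower, where 3.54% of all 10903 measured genes were higher and 0.899% lower. The median log2 ratio of the 6 genes was 0.49, against 0.01 over all measured genes. It was 0.29 after rescaling without the 20 highest genes, with the median of all genes then at -0.20, and 0.32 with a pseudocount of 5 FPKM.

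**Figure D1:**
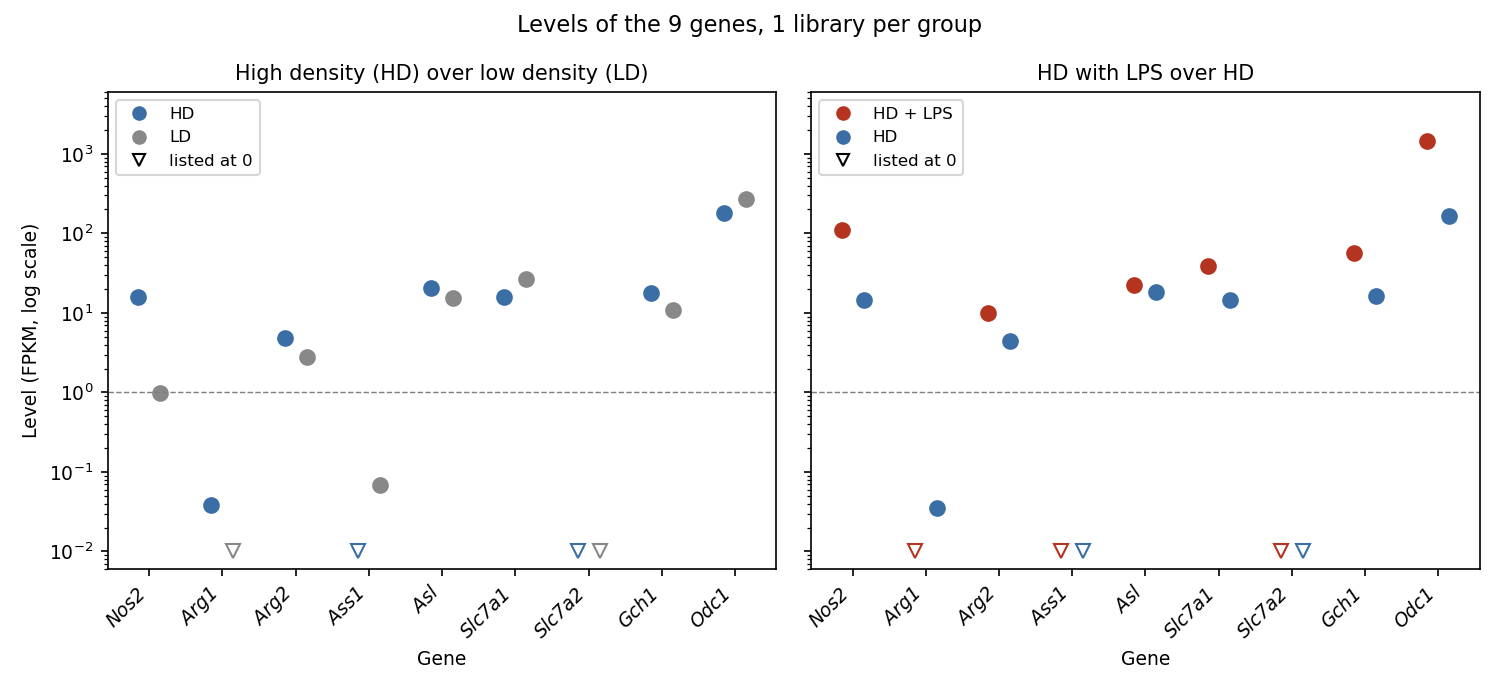
Level of each of the 9 genes (FPKM, log axis) in the high and low density libraries (left) and in the LPS-treated and untreated high density libraries (right), 1 point per library, with open triangles for genes listed at 0 and a dashed line at 1 FPKM. Nos2 is 15.9 FPKM at high density against 0.974 at low density and 111 with LPS against 14.4 without, while Slc7a2 is listed at 0 throughout.

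Nos2 (chromosome 11, 78920787 to 78960226, GRCm38) was 15.9 FPKM at high density and 0.974 FPKM at low density, about 866 and 54 fragments. The level was 16.3-fold higher at high density (12.5 to 22.1), a log2 ratio of 3.10 that was exceeded by only 26 of the 10903 measured genes. At low density the gene lay just under 1 FPKM, so it passed the minimum only through the high density library. In the authors' deposited table Nos2 is called higher with q = 0.0217, as are 0.238% of the loci tested there, and no other of the 9 genes is called. The same table calls 0.017% of its loci lower. In bulk RNA, more cells with Nos2 transcripts and more transcripts per cell cannot be told apart.

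Gch1 (chromosome 14, 47153895 to 47189413) encodes GTP cyclohydrolase, the first and rate-limiting enzyme of tetrahydrobiopterin synthesis. It was 17.9 FPKM at high density and 11.0 FPKM at low density, a fold of 1.63 (1.46 to 1.83). The difference is beyond counting error but within 2-fold, and its log2 ratio of 0.66 was above that of 90.8% of measured genes.

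The arginine transporter gene Slc7a1 (CAT1, chromosome 5, 148327410 to 148399904) was 16.0 FPKM at high density and 26.6 FPKM at low density, a fold of 0.604 (0.570 to 0.640). The related transporter gene Slc7a2 (CAT2, chromosome 8, 40862341 to 40922070), which in mouse macrophages is known as the inducible carrier, was listed at 0 in both libraries. A row for Slc7a3 is shared with Snx12 and gives no value of its own.

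Of the enzymes that rebuild arginine from citrulline, the argininosuccinate lyase gene Asl (chromosome 5, 130011258 to 130024381) was 20.4 FPKM at high density and 15.6 FPKM at low density, a fold of 1.31 (1.18 to 1.46). The argininosuccinate synthase gene Ass1 (chromosome 2, 31470270 to 31520670) was listed at 0 at high density and stood at 0.0690 FPKM at low density, a value that corresponds to about 2 fragments.

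The arginase genes were both low. Arg1 (chromosome 10, 24915207 to 24930504), the cytosolic arginase, was 0.0381 FPKM at high density, about 1 fragment, and was listed at 0 at low density. Arg2 (chromosome 12, 79130788 to 79172685), the mitochondrial arginase, was 4.78 FPKM at high density and 2.78 FPKM at low density, a fold of 1.72 (1.26 to 2.40) on about 108 and 64 fragments. Arg2 overlaps Vti1b, which was 86.4 FPKM at high density and 60.8 FPKM at low density. The sources used here do not say whether strand was kept, so reads in the overlap cannot be assigned to one gene. The same holds for Arg1 with Gm40616, Gch1 with Gm18811 and Odc1 with Gm22748, which overlap in the RefSeq annotation.

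Odc1 (chromosome 12, 17544808 to 17551502), encoding ornithine decarboxylase, was by far the most abundant of the 9, with 183 FPKM at high density and 273 FPKM at low density. The fold was 0.671 (0.650 to 0.693), so Odc1 and Slc7a1 were the 2 of the 6 measured genes with lower values at high density, neither by 2-fold. Only 6.40% of measured genes had a log2 ratio below that of Odc1, and 3.44% had one below that of Slc7a1.

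Of the 6 measured genes, 5 were 2-fold or more higher with LPS (Nos2, Odc1, Gch1, Slc7a1 and Arg2) and 0 lower, where 8.6% of all 11001 measured genes were higher and 5.84% lower. All 6 were at 1 FPKM or more in both libraries. Their median log2 ratio was 1.54, against 0.03 over all measured genes. None of the 9 is called in the authors' deposited table for LPS, which calls 0.297% of its tested loci higher and 0.0593% lower, and the lowest q among them there is 0.0517, for Nos2.

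**Figure D2:**
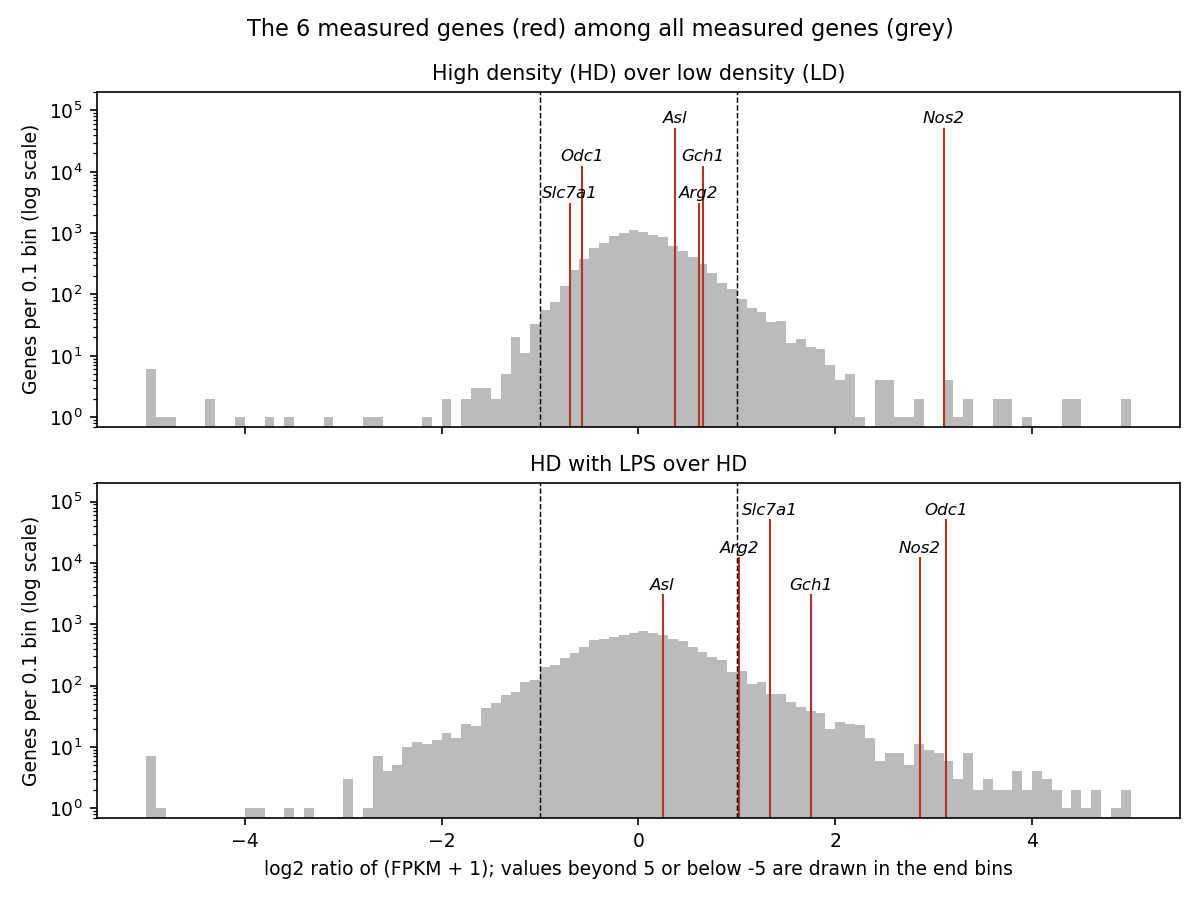
Number of measured genes (log axis) by log2 ratio for high over low density (top) and LPS over no LPS at high density (bottom), with the 6 measured genes of the pathway as red lines and 2-fold limits dashed. In the upper panel Nos2, at 3.10, is the only red line beyond a limit; in the lower panel all but Asl, at 0.25, lie to the right of the upper limit.

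Nos2 was 111 FPKM with LPS and 14.4 FPKM without, a fold of 7.69 (7.16 to 8.27). It was in place 768 among measured genes by level with LPS, against place 4932 without. The untreated library of this comparison is the same high density library that was the higher one in the density comparison, scaled anew in this table.

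Odc1 was 1470.0 FPKM with LPS and 167 FPKM without, a fold of 8.80 (8.57 to 9.03). This was the highest ratio of the 9 genes and the 75th highest of all measured genes. By level Odc1 was in place 79 with LPS and in place 470 without. Whereas it was lower at high density than at low density, it was higher with LPS than without.

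Gch1 was 57.1 FPKM with LPS and 16.3 FPKM without, a fold of 3.51 (3.24 to 3.81). Slc7a1 was 38.4 FPKM with LPS and 14.6 FPKM without, a fold of 2.63 (2.49 to 2.78). Slc7a2 was listed at 0 in both libraries, as in the density comparison.

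Arg2 was 9.92 FPKM with LPS and 4.37 FPKM without, a fold of 2.27 (1.78 to 2.87). Its log2 ratio of 1.02 lay just past the limit and was under it, at 0.99, both when the libraries were rescaled without the 20 highest genes and when the median gene was set to 0. A pseudocount of 5 FPKM gave 0.67. The overlapping Vti1b was 94.8 FPKM with LPS and 78.8 FPKM without. Arg1 was listed at 0 with LPS and stood at 0.0348 FPKM without.

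Asl was the only measured gene of the 9 within 2-fold, at 22.1 FPKM with LPS and 18.5 FPKM without, a fold of 1.20 (1.08 to 1.32). Ass1 was listed at 0 in both libraries. An exact 0 in such a table can be a failed estimate: the ribosomal protein gene Rps18, which has 4 rows, is also listed at 0. Ass1, Slc7a2 and Arg1 each have 1 row, on a main chromosome, and no absence is inferred from their zeros or from those of any other gene named here.

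Quotients of 2 genes within a library do not depend on how the library was scaled. The level of Nos2 over that of Arg2 was 3.34 at high density and 0.351 at low density, and 11.2 with LPS and 3.30 without. By these levels Arg2 exceeded Nos2 per length at low density, and Nos2 exceeded Arg2 in the other libraries. At low density this rests on about 64 and 54 fragments, and reads in the overlap with Vti1b may count toward Arg2. Asl over Nos2 was 1.28 at high density and 16.0 at low density, and 0.199 with LPS and 1.28 without. Odc1 over Oaz1, whose product antizyme inhibits ornithine decarboxylase and targets it for degradation, was 0.339 at high density and 0.620 at low density, and 4.40 with LPS and 0.345 without. Gch1 over Gchfr, whose product is the feedback regulator of GTP cyclohydrolase, was 0.388 at high density and 0.405 at low density, and 2.37 with LPS and 0.389 without. Slc7a1 over Slc7a6, a heteromeric transporter of cationic and neutral amino acids, was 0.617 at high density and 0.856 at low density, and 1.40 with LPS and 0.597 without.

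**Figure D3:**
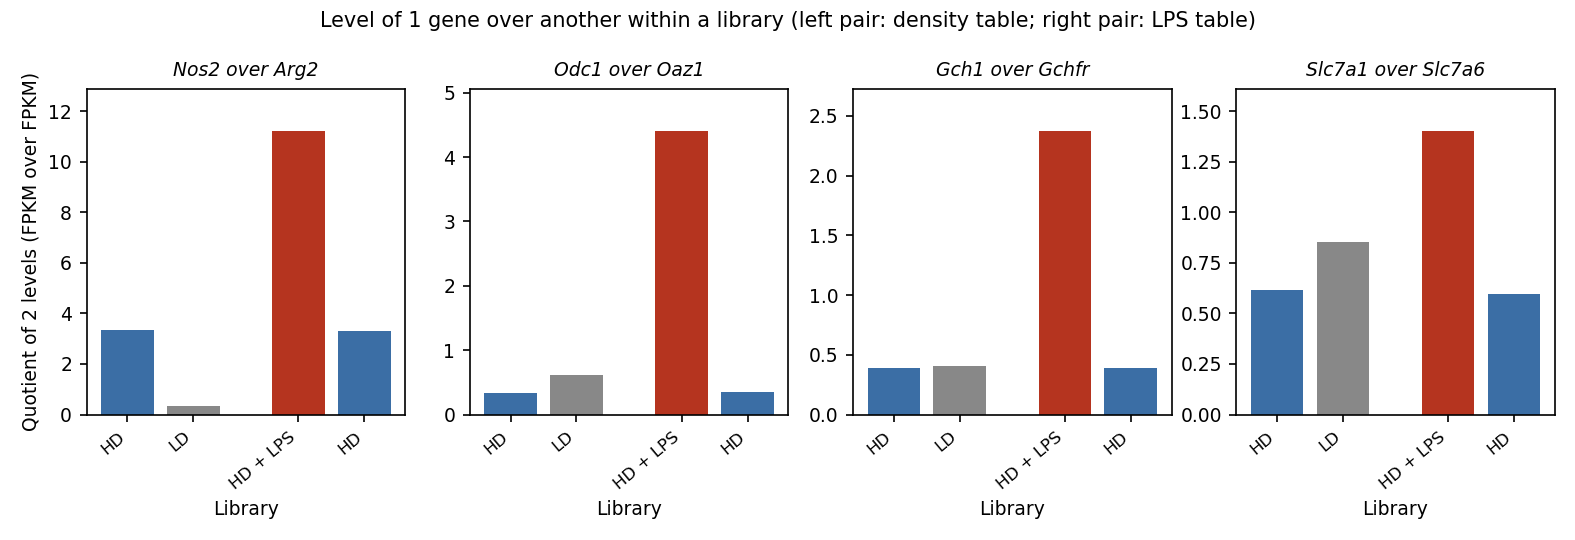
Level of 1 gene over that of another in the same library (FPKM over FPKM, linear axes from 0) for 4 pairs, with the high and low density libraries on the left of each panel and the LPS-treated and untreated high density libraries on the right. The untreated high density library gives nearly the same quotient in both tables, and the LPS library the highest of each panel, 11.2 for Nos2 over Arg2 and 4.40 for Odc1 over Oaz1.

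The wider pathway was described through 8 lists. Without the 9 genes, 55 of their genes were measured. At high density 4 of these were 2-fold or more higher, 0 lower and 51 within 2-fold (median log2 ratio 0.11), where 3.54% of all measured genes were higher. With LPS 8 were higher, 4 lower and 43 within 2-fold (median 0.07), where 8.6% of all measured genes were higher and 5.84% lower. At high density 0.899% of all measured genes were lower, and these shares apply to each list below. The authors' deposited test calls none of these 55 genes in either comparison. It calls 0.238% of tested loci higher and 0.017% lower for density, and 0.297% and 0.0593% for LPS. In the list of nitric oxide synthases and their partners, 2 of 4 measured genes were 2-fold or more higher at high density and 1 of 4 with LPS. Both that were higher at high density, Nos2 and Nos1, passed the minimum only through the high density library. Beside Nos2, the neuronal synthase gene Nos1 was 3.28 FPKM at high density and 0.805 FPKM at low density, with q = 0.169 in the authors' deposited table. With LPS Nos1 was 1.13 FPKM against 2.92 FPKM without, a log2 ratio of -0.88, which is the opposite direction to Nos2. The endothelial synthase gene Nos3 stayed under 1 FPKM in every library. Nostrin, which binds the endothelial synthase and affects its traffic, was 5.55 FPKM with LPS and 9.87 FPKM without.

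Among 7 measured genes of tetrahydrobiopterin synthesis and recycling, 0 were 2-fold apart at high density. With LPS Gch1 was higher and 1 gene lower, Pts, which encodes pyruvoyl tetrahydropterin synthase, the next enzyme after GTP cyclohydrolase, at 12.4 FPKM with LPS and 27.1 FPKM without. Spr (sepiapterin reductase, the last enzyme of synthesis) was 24.5 FPKM with LPS and 32.2 FPKM without, and Gchfr was 24.1 FPKM with LPS and 41.8 FPKM without, both within 2-fold. The recycling enzyme gene Qdpr was 68.9 FPKM with LPS and 73.6 FPKM without. The first step of the pathway was thus the one gene of this list past 2-fold upward, and the list median was -0.10.

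Of 10 measured genes in the list of arginine, citrulline and ornithine enzymes, 2 were higher at high density and 0 lower (median log2 ratio 0.33). These were Pycr1, a proline synthesis enzyme, at 12.4 FPKM at high density and 5.37 FPKM at low density, and Azin2, an antizyme inhibitor, at 1.99 FPKM at high density and 0.487 FPKM at low density. Azin2 passed the minimum only through the high density library, and was within 2-fold when the median gene was set to 0. Neither was 2-fold apart after rescaling without the 20 highest genes, nor with a pseudocount of 5 FPKM, which also ended the call of Nos1. With LPS, Arg2 was the 1 gene higher and Gamt the 1 lower (median -0.02), against 8.6% and 5.84% of all measured genes. Gamt, which carries out the last step of creatine synthesis, was 3.36 FPKM with LPS and 18.6 FPKM without, a fold of 0.181. Oat, the ornithine aminotransferase gene, which offers ornithine a route to proline and glutamate, was 46.4 FPKM with LPS and 57.7 FPKM without. The urea cycle genes Otc and Cps1 were listed at 0 throughout.

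Among 7 measured transporters, 0 were 2-fold apart at high density (median -0.25). With LPS 2 were higher (median 0.40), against 8.6% of all measured genes. The second after Slc7a1 was Slc3a2, the heavy chain shared by several amino acid transporters, at 186 FPKM with LPS and 88.7 FPKM without. Its partner gene Slc7a7 was 12.3 FPKM with LPS and 9.12 FPKM without, and the mitochondrial ornithine carrier gene Slc25a15 was 3.12 FPKM with LPS and 4.54 FPKM without.

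In the polyamine list, 1 of 16 measured genes was higher at high density and 0 lower (median -0.03). With LPS, 3 were higher, 1 lower and 12 within 2-fold (median -0.07), against 8.6% higher and 5.84% lower over all measured genes. Beside Odc1 the higher genes were Smox and Azin1. Smox, the spermine oxidase gene, was 129 FPKM with LPS and 40.2 FPKM without. Azin1, which frees ornithine decarboxylase from antizyme, was 76.9 FPKM with LPS and 37.5 FPKM without. Azin1 had a log2 ratio of 1.02 and was within 2-fold under both rescalings. Smox was also the gene higher at high density, at 45.3 FPKM at high density and 21.0 FPKM at low density, a call lost after rescaling without the 20 highest genes and with a pseudocount of 5 FPKM. The gene that was lower with LPS was Atp13a2, a lysosomal polyamine exporter, at 27.3 FPKM with LPS and 57.9 FPKM without.

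The other synthesis genes were within 2-fold. Amd1, which makes the aminopropyl donor, was 9.63 FPKM with LPS and 18.8 FPKM without, and it has a near-identical copy, Amd2, so its level is uncertain. The spermidine synthase gene Srm was 26.2 FPKM with LPS and 35.0 FPKM without, read from an alternate scaffold since its row on a main chromosome was near 0. The spermine synthase gene Sms was 38.6 FPKM with LPS and 32.3 FPKM without. Oaz1 was 334 FPKM with LPS and 484 FPKM without, and the spermidine and spermine acetyltransferase gene Sat1 was 275 FPKM with LPS and 191 FPKM without.

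**Figure D4:**
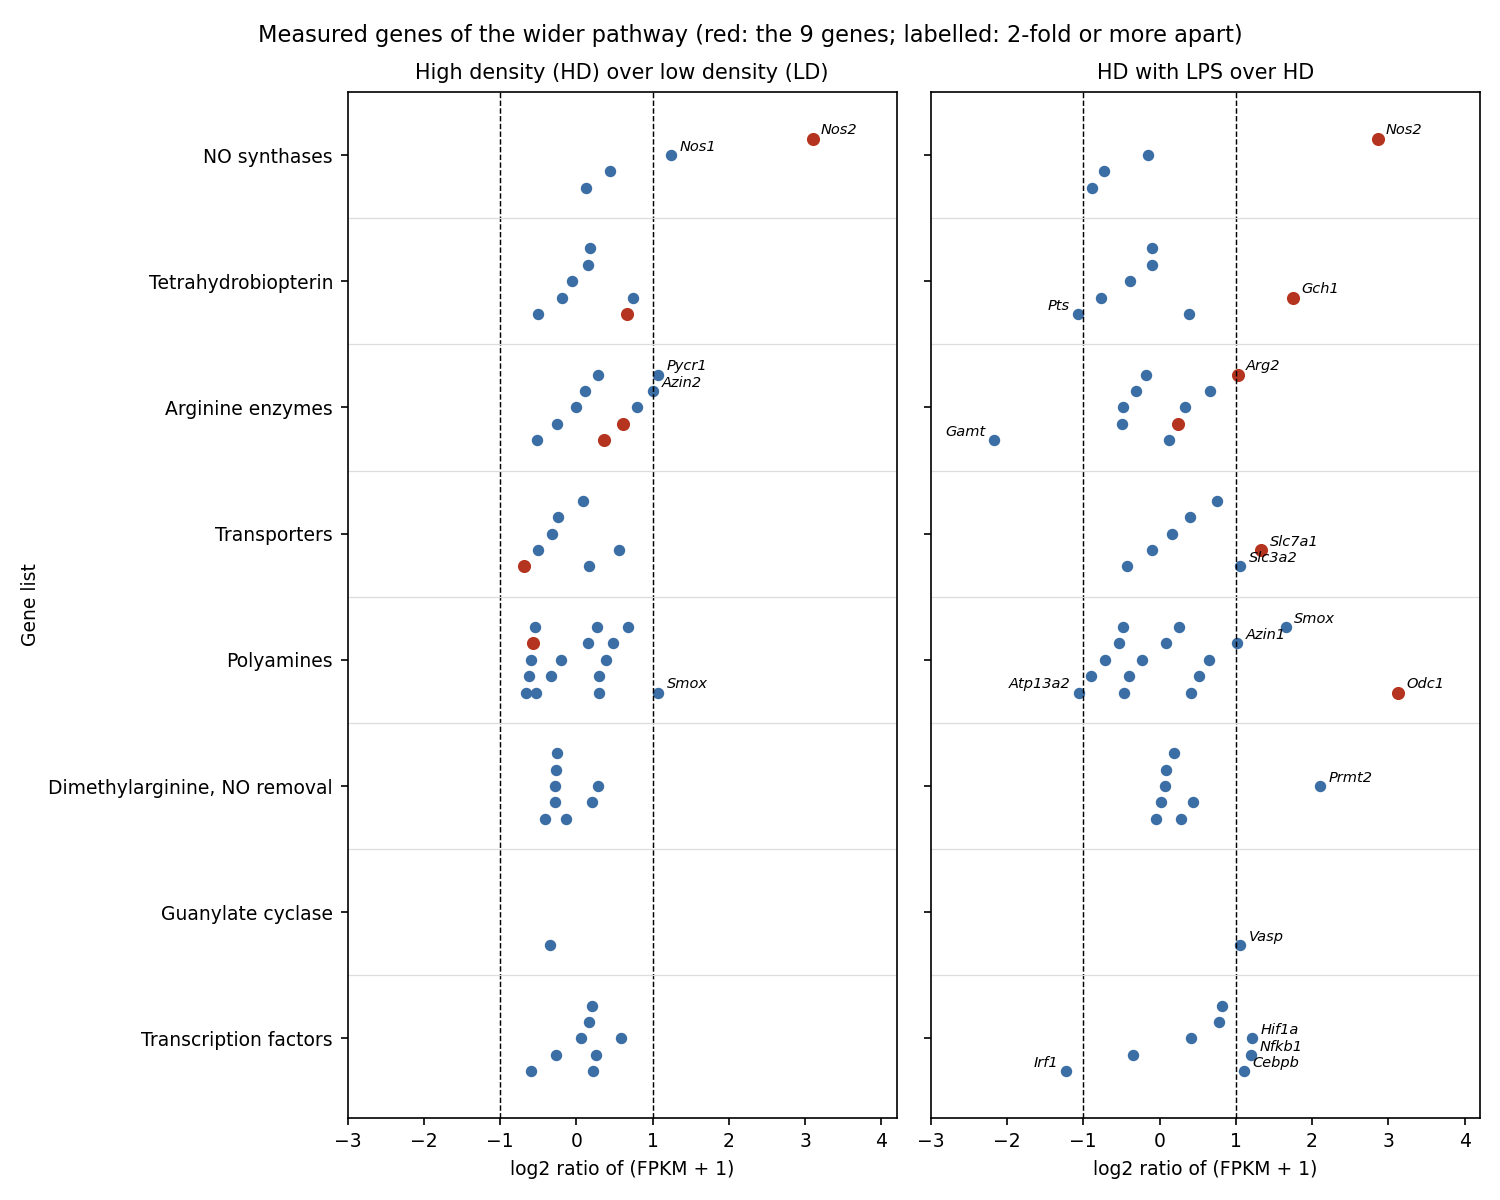
Log2 ratio of each measured gene in 8 pathway lists for high over low density (left) and LPS over no LPS at high density (right), 1 point per gene, in red for the 9 genes, with dashed 2-fold limits and the genes beyond them labelled. Nos2 and Odc1 lie far to the right with LPS at 2.86 and 3.13, while most other points of their lists stay between the limits.

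Of 8 measured genes that make or clear dimethylarginines or remove nitric oxide, 0 were 2-fold apart at high density and 1 was higher with LPS, the protein arginine methyltransferase gene Prmt2. Prmt2 was 35.7 FPKM with LPS and 7.53 FPKM without, a fold of 4.75. The main methyltransferase gene Prmt1 was 152 FPKM with LPS and 157 FPKM without, and Adh5, which reduces S-nitrosoglutathione, was 98.1 FPKM with LPS and 93.2 FPKM without. Ddah1, which clears dimethylarginine, was listed at 0 throughout. Ddah2 was under 1 FPKM, but it has 4 rows, so its level is uncertain.

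Of 8 genes matched for the soluble guanylate cyclase pathway, which senses nitric oxide, only Vasp was measured, a cytoskeletal protein gene whose product is phosphorylated by the downstream kinase. Vasp was 231 FPKM with LPS and 110 FPKM without, and 123 FPKM at high density and 157 FPKM at low density. The cyclase subunit genes Gucy1a1 and Gucy1b1 were listed at 0 in every library. Each has 1 row, unlike Rps18, which has 4. An exact 0 can be a failed estimate, so their levels remain unknown.

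Among 8 measured genes of transcription factors known to act on Nos2 or Arg1, 0 were 2-fold apart at high density (median 0.19). Hif1a was 18.2 FPKM at high density and 27.9 FPKM at low density, and Rela was 26.1 FPKM at high density and 24.9 FPKM at low density. With LPS, 3 were higher and 1 lower (median 0.80), where 8.6% of all measured genes were higher and 5.84% lower. Hif1a was 41.3 FPKM with LPS and 17.3 FPKM without, and Nfkb1 was 48.0 FPKM with LPS and 20.2 FPKM without. The same untreated library gave Nfkb1 27.6 FPKM in the density comparison, a larger gap than for most genes. The ratio of Nfkb1 with LPS is thus uncertain. Cebpb was 270 FPKM with LPS and 125 FPKM without. The lower one was Irf1, an interferon regulatory factor gene, at 4.69 FPKM with LPS and 12.3 FPKM without.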

How the data were processed

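FPKM, log2 ratios, p-values and q-values and a test score were deposited by the authors in 2 tables whose columns, per the file headers, are those of a Cuffdiff gene test. FastQC, fastp, TopHat2 and Cuffdiff, with the builds GRCm38 and mm10, are named in the submitters' processing notes; tool versions, annotation, scaling and strand are not stated there. Each library pair was scaled separately. High density cells appear in both, and for the 6 measured genes its values in the LPS table were lower by 0.13 to 0.14 on the log2 scale (all genes, median -0.13), so ratios were made within a table only.

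Gene names were split on commas, and a symbol with several rows kept the row with the largest summed level. Coordinates are 1-based. The minimum was 1 FPKM in either library and the pseudocount 1 FPKM, a scale that understates changes of low genes. The authors' score was not used, and their test compared single libraries.

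Reads were not counted. For genes with 1 transcript, at least 1000 bases long, the lowest FPKM times kilobases gathered at a step taken as 1 fragment. It gave 15.9 fragments per FPKM and kilobase at high density and 16.3 at low density, and 14.6 with LPS and 17.4 for high density in that table. Fragment numbers use GENCODE transcript lengths and are approximate.

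Named genes were all 9 genes, any measured gene of the lists, and the 5 genes nearest to Nos2 by both ratios. List genes under the minimum, genes that overlap one of the 9 or of these 5, and Rps18 are named outside this rule. They were chosen after the values were seen. The 9 genes, lists and thresholds were chosen with earlier results of these data known, and the motifs after the files had been read. From the transcription factor list, 1 gene was left out with its values known and is not reported here. Alternatives changed the pseudocount, the minimum, the scaling and the treatment of several rows. The steps were tested on simulated data. Analyses used Python 3.11.15, pandas 2.3.3, scipy 1.17.1 and matplotlib 3.10.9.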

Additional observations from a re-analysis of the deposited data

How the results depend on the processing

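No paired analysis was possible because each group had 1 library, and no library could be left out. Of 83 ratios of the 6 measured genes recomputed under 7 alternatives, 0 changed sign. Only the rescalings could have changed one, because the other alternatives keep the sign of these ratios by construction. Nos2 ranged from 1.81 to 3.90 for density, at pseudocounts of 5 and 0.1 FPKM, and from 2.58 to 2.93 for LPS. Odc1 ranged from 3.09 to 3.14 for LPS. For density, Odc1 ranged from -0.81 to -0.56 and Slc7a1 from -0.92 to -0.59, neither past 2-fold. The count of the 9 genes 2-fold apart was 1 for density throughout and 4 or 5 for LPS, where Arg2 was the one lost.

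Of the other pathway genes, 4 were higher at high density. The count was 0 with a pseudocount of 5 FPKM, 2 at a minimum of 5 FPKM and 1 after rescaling without the 20 highest genes. It was 3, without Azin2, with the median gene set to 0. With LPS, 8 of 55 were higher, or 7, without Azin1, with that pseudocount and under both rescalings; 4 were lower, and 1 with a pseudocount of 5 FPKM. The pseudocount and minimum act by construction on low genes; for the rescaling, the cause was not tested.

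The same rescaling moved the median of all genes for density to -0.20, and 51.6% of the genes 2-fold apart were then higher (252 higher and 236 lower), against 79.8% (386 and 98). Nos2, at 2.93, was still higher. The medians of the tetrahydrobiopterin and transcription factor lists were then -0.08 and -0.04, so no direction is given for these lists at high density. Other list medians for density moved too: after rescaling the polyamine median was -0.44 and that of the arginine enzymes 0.10. A pseudocount of 5 FPKM gave 0.0038 for polyamines, and a minimum of 5 FPKM gave 0.17 for polyamines with LPS, so the main polyamine medians show no direction. Pseudocounts of 0.1 and 5 FPKM gave 638 and 167 higher and 220 and 36 lower genes for density. For LPS the main counts were 946 and 642, and a pseudocount of 5 FPKM gave 475 and 241, one of 0.1 FPKM 1214 and 1029. Values near 1 FPKM rest on few fragments.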

Other observations

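Among 5846 candidate genes at 10 FPKM or more in the higher library of both tables, those nearest to Nos2 by Euclidean distance over both log2 ratios were Ddit3, Rnu3a, Trib3, Atf3 and Pim1, at distances of 1.46 to 2.16. None was close to the Nos2 values of 3.10 and 2.86. The comparisons share the high density library, so the ratios are not independent. Ddit3, the stress-induced transcription factor CHOP, was 35.1 FPKM at high density and 9.42 FPKM at low density, and 152 FPKM with LPS and 31.7 FPKM without; it overlaps Mars1 and Mbd6. Trib3, a stress-induced pseudokinase gene, was 17.3 FPKM at high density and 5.67 FPKM at low density, and 64.5 FPKM with LPS and 15.6 FPKM without. Atf3, a stress-induced transcription factor gene, was 75.8 FPKM at high density and 34.2 FPKM at low density, and 415 FPKM with LPS and 69.1 FPKM without. Pim1, a kinase gene that overlaps Gm26885, had log2 ratios of 1.06 for density and 2.15 for LPS. Rnu3a, a small nucleolar RNA gene, had 1.63 and 1.82.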
